A study of Arabidopsis thaliana with 46 samples.

Results

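LBD1 (AT1G07900) and 8 further genes of class I of the LATERAL ORGAN BOUNDARIES DOMAIN (LBD) family were followed through 46 RNA-seq libraries of Arabidopsis thaliana (Col-0) roots and root protoplasts. The genes were chosen by their IDs and make up 9 of the 33016 genes listed in the N-dose and the root and protoplast tables and 9 of the 33341 genes listed in the CHX tables. The others are LBD3 (AT1G16530), LBD4 (AT1G31320), LBD11 (AT2G28500), LBD16 (AT2G42430), LBD17 (AT2G42440), LBD18 (AT2G45420), LBD29 (AT3G58190) and LBD33 (AT5G06080). LBD1 was chosen for its rise with the transcription factor (TF) TGA4, so its values under TGA4 are described without a test, while the other 8 are relatives from the same class, picked from it with earlier results of these data known.

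The study asked which genes a TF and the nitrogen (N) supply regulate in root cells. In the TARGET assay, protoplasts expressing TGA4 fused to a domain of the glucocorticoid receptor (GR) were compared with protoplasts carrying an empty vector (EV) with GR alone. Dexamethasone (DEX) lets the fusion enter the nucleus, cycloheximide (CHX) blocks translation, and transfected cells were sorted by their fluorescence. Libraries fall into 14 groups in 3 experiments. The N-dose experiment holds TGA4_0N, TGA4_5N, TGA4_60N, EV_0N, EV_5N and EV_60N (n = 3 each), all with 35 µM CHX and 10 µM DEX, where 0N cells received 20 mM KCl, 5N cells 5 mM KNO3, and 60N cells 20 mM KNO3 with 20 mM NH4NO3. The CHX experiment holds TGA4_pChx, TGA4_mChx, EV_pChx and EV_mChx (n = 3 each), with 10 µM DEX and with (p) or without (m) 35 µM CHX. Its N supply is not part of the labels and, per the methods, was that of 60N. The root and protoplast experiment holds Protoplast_60N, Protoplast_0N, Root_60N and Root_0N (n = 4 each). These protoplasts received neither CHX nor DEX and, per the methods, carried EV. Whole roots came from plants grown in liquid and protoplasts from plants grown on plates, so tissue, growth and cell isolation cannot be told apart in this comparison. The labels give an age of 10 days, and per the methods the plants of the whole roots were slightly older. Per the methods, the replicates of a vector were wells of 1 transfection, so the difference between vectors cannot be told apart from the difference between transfections, and p-values measure only the spread between these wells.

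LBD genes encode plant TFs with a LOB domain, and class I members carry a coiled coil through which they form dimers. LBD16, LBD18 and LBD29 act downstream of the auxin response factors ARF7 and ARF19 in lateral root formation, LBD33 pairs with LBD18, and LBD16, LBD17, LBD18 and LBD29 can each drive callus formation. LBD1, LBD3, LBD4 and LBD11 are known from the vascular cambium, where they act in radial growth of the root. TGA4 is a basic leucine zipper TF whose family binds the letters TGACG.

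In the RefSeq annotation of TAIR10.1 each of the 9 genes has 2 exons, none overlaps another gene, and 0 of their 50-base exon stretches occur elsewhere in the genome. LBD1 lies on the plus strand at chr1:2442570-2443746. LBD11 lies on the minus strand at chr2:12186274-12188293. LBD16 (plus strand, chr2:17663353-17665337) and LBD17 (minus strand, chr2:17668701-17669836) are neighbours 3363 bases apart. LBD29 lies on the minus strand at chr3:21548484-21549572, and LBD4 on the plus strand at chr1:11212958-11214567. LBD1 is the only one of the 9 genes with TGACG, on either strand, in the 500 bases before its annotated start. This motif occurs in that window in 31.77% of 32794 genes, and the longer TGACGT in 12.03%. In LBD1 it reads CGTCA and starts 113 bases upstream. The auxin response letters TGTCTC (21.27% of genes) are present before LBD1, 54 bases upstream, and before LBD33. A match is a description of the letters and not a binding site. The 250 bases before LBD1, the gene with the most change under TGA4, and before LBD11, its closest match in sequence among the cambium members, are shown with TGACG in capitals where present.
LBD1: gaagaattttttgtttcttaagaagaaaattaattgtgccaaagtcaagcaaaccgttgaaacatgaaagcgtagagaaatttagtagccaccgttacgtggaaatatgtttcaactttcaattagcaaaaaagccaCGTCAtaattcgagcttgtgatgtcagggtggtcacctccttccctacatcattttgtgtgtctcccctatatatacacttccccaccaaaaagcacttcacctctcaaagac
LBD11: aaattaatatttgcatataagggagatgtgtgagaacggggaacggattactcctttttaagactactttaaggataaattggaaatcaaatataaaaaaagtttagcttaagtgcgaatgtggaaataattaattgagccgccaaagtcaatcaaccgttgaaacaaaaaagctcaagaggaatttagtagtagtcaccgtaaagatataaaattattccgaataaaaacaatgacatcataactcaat

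The 250-base windows of the 9 genes were aligned locally in all 36 pairs, because genes that share a promoter block can be compared for shared expression. LBD17 and LBD29 gave the highest score (55), with 89 of 116 aligned columns identical (76.7%). LBD1 and LBD11 came next (38), with 93 of 133 columns identical (69.9%), and LBD3 and LBD4 after them (24, 64.4%). The blocks are printed with identical bases in capitals.
LBD17: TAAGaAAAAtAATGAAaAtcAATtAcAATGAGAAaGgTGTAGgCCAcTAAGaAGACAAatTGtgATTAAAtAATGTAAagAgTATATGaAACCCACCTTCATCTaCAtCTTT
LBD29: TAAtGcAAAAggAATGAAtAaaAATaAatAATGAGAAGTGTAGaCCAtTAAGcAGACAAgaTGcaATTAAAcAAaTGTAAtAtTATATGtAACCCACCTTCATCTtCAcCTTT
LBD1: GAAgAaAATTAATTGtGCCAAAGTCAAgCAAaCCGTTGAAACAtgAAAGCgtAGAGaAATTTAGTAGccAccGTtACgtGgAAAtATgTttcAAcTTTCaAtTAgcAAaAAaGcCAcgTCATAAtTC
LBD11: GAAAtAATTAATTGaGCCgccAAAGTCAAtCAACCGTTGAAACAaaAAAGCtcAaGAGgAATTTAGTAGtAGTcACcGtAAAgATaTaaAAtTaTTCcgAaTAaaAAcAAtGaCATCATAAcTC
The LBD1 block runs from 229 to 103 bases upstream and so holds the CGTCA of LBD1. The aligned block of LBD11 runs from 127 to 4 bases upstream and holds no CGTCA. No statistic was attached to these alignments.

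Total counts per library ran from 7835278 to 16214169 in the N-dose experiment, from 2397664 to 8177924 in the CHX experiment and from 9677719 to 17478925 in the root and protoplast experiment. Levels are given as CPM, counts per megacount of the scaled library total. A floor of 3 counts corresponds to 0.167 to 0.427, 0.398 to 1.21 and 0.125 to 0.404 CPM in a library of these experiments, and covers counting error only. Of the 9 genes, 7 passed the filter on low counts in the N-dose experiment (not LBD4 and LBD33), 3 in the CHX experiment (LBD1, LBD11 and LBD16) and 8 in the root and protoplast experiment (not LBD33). The filter keeps a gene that is high enough in a few libraries, so a member can enter a fit through 1 group. In the N-dose experiment LBD11, LBD16 and LBD29 were over its level in all 18 libraries, whereas LBD1 and LBD3 entered only through TGA4 libraries, and LBD17 and LBD18 mainly through EV_0N. In the root and protoplast experiment LBD1 and LBD11 entered only through protoplasts, and LBD3 and LBD4 only through roots. Counts over the members that entered are therefore given as descriptions. Replicates differed by more than sampling noise in all 54 pairs (chi-square per degree of freedom 2.12 to 27.2), and by this measure EV_5N replicate 3 and Root_60N replicate 1 stood apart from the others of their groups (21.3 and 24.7 for the pairs with EV_5N replicate 3, against 3.17 between the other two). TGA4 transcripts, which the vector supplies, averaged 6323, 6390 and 5241 CPM in TGA4_0N, TGA4_5N and TGA4_60N, against 32.9, 48.3 and 47.5 CPM in EV_0N, EV_5N and EV_60N. Of the 8 root cell markers SHR, SCR, COBL9, WER, CASP1, PLT1, PHO1 and AHK4, none was at 0 in any group. Their summed level was 35.0 to 45.5 CPM in the TGA4 groups of the N-dose experiment, against 49.7 to 58.7 CPM in its EV groups, and 4 green shoot markers summed to 0.858 to 5.58 CPM over all groups of protoplasts.

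In the N-dose experiment LBD1 was near the counting floor in every EV library and high in every TGA4 library. It had 99.9, 90.0 and 84.5 CPM in TGA4_0N, against 0.810, 0.680 and 0.649 CPM in EV_0N. At 5N the values were 76.1, 90.1 and 77.3 CPM in TGA4_5N, against 0.682, 0.534 and 0 CPM in EV_5N. At 60N they were 109, 118 and 92.1 CPM in TGA4_60N, against 0.660, 0.556 and 0.847 CPM in EV_60N. TGA4 and EV libraries did not overlap at any dose. The fitted log2 fold change was 6.98 ± 0.24 at 0N, 7.65 ± 0.27 at 5N and 7.30 ± 0.24 at 60N (SE, n = 3), or 126-, 201- and 158-fold. Leaving out EV_5N replicate 3, the library with no count of LBD1, gave 7.04 at 5N. These contrasts chose the gene, so no test is given for them.

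**Figure D1:**
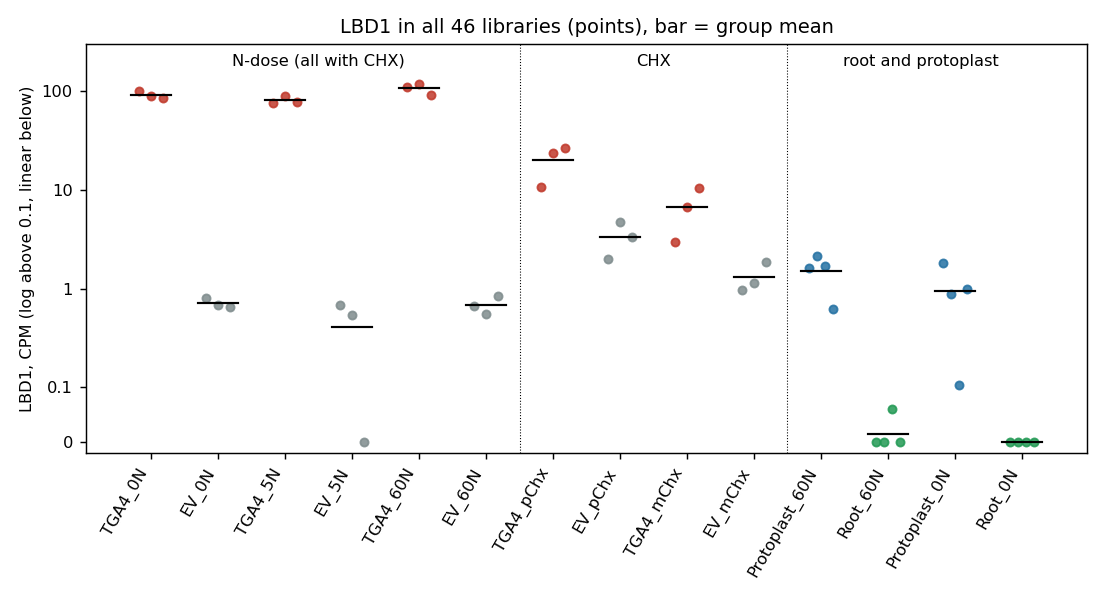
CPM of LBD1 in each of the 46 libraries (points) and the mean of each of the 14 groups (bars), on an axis that is logarithmic above 0.1 CPM and linear below. The 9 TGA4 libraries of the N-dose experiment sit between 76.1 and 118 CPM, while the Root_0N libraries are all at 0.

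In TGA4 cells no response of LBD1 to N was detected against 0N. In the TGA4 libraries, LBD1 averaged 91.4 ± 7.77, 81.2 ± 7.74 and 106 ± 13.0 CPM at 0N, 5N and 60N (SD, n = 3). The 5N and 60N ranges each overlapped the 0N range, with log2 fold changes of -0.17 ± 0.15 for 5N and 0.22 ± 0.15 for 60N (SE, edgeR adjusted p = 0.999 and 0.524). The 60N range (92.1 to 118 CPM) lay above the 5N range (76.1 to 90.1 CPM) without overlap, and the difference between these doses was not tested. In the EV libraries LBD1 had 0 to 0.847 CPM, or 0 to 10 counts, where a response to N could not be resolved at this depth and is not read.

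In the CHX experiment LBD1 was higher with TGA4 than with EV too, by a smaller factor. With CHX it had 10.7, 23.4 and 26.6 CPM in TGA4_pChx, against 1.99, 4.73 and 3.33 CPM in EV_pChx. Without CHX it had 2.99, 6.67 and 10.3 CPM in TGA4_mChx, against 0.962, 1.13 and 1.86 CPM in EV_mChx. The vector groups did not overlap in either condition, and the spread between replicates was wider than in the N-dose experiment. The log2 fold change was 2.63 ± 0.40 with CHX and 2.34 ± 0.51 without (SE), a description like those above. TGA4 transcripts averaged 24460 CPM in TGA4_pChx and 10232 CPM in TGA4_mChx, against 5241 CPM in TGA4_60N, while LBD1 averaged 20.2, 6.66 and 106 CPM in the same groups. These experiments were scaled separately and hold different gene sets, so the levels stand side by side without a test.

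LBD1 was higher with CHX in TGA4 cells, by 1.55 ± 0.39 on the log2 scale (SE, edgeR adjusted p = 0.00243), and the TGA4_pChx and TGA4_mChx libraries did not overlap. In EV cells the change was 1.25 ± 0.53 (edgeR adjusted p = 0.0585) and did not pass the threshold, although the EV_pChx and EV_mChx libraries did not overlap either. It passed with DESeq2, without EV_pChx replicate 1, without TGA4_mChx replicate 1 and without TGA4_pChx replicate 1. LBD11, the other abundant cambium member, was called in both vectors. It had 134, 151 and 133 CPM in TGA4_pChx, against 41.6, 40.4 and 31.2 CPM in TGA4_mChx, and 123, 134 and 128 CPM in EV_pChx, against 44.6, 51.8 and 37.7 CPM in EV_mChx. Every library with CHX was above every library without it, by 1.91 ± 0.14 on the log2 scale in TGA4 cells and 1.52 ± 0.13 in EV cells (SE, edgeR adjusted p = 1.2e-10 and 1.6e-09). LBD16, a lateral root regulator, averaged 5.15 ± 0.715 CPM in TGA4_pChx, against 6.74 ± 1.90 CPM in TGA4_mChx, and 7.38 ± 2.45 CPM in EV_pChx, against 7.02 ± 1.85 CPM in EV_mChx (SD, n = 3), with overlapping ranges. Called members thus numbered 2 of 3 tested in TGA4 cells and 1 of 3 in EV cells, where 45.9% and 48.1% of all genes tested were called. No member passed a 5-fold CHX response in an additive fit of vector and CHX with edgeR, where LBD11 reached 1.70 ± 0.10 and LBD1 1.45 ± 0.31 on the log2 scale (6.90% of genes tested passed). DESeq2, which was run without that count filter, placed 1 member (LBD29) over that limit.

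**Figure D2:**
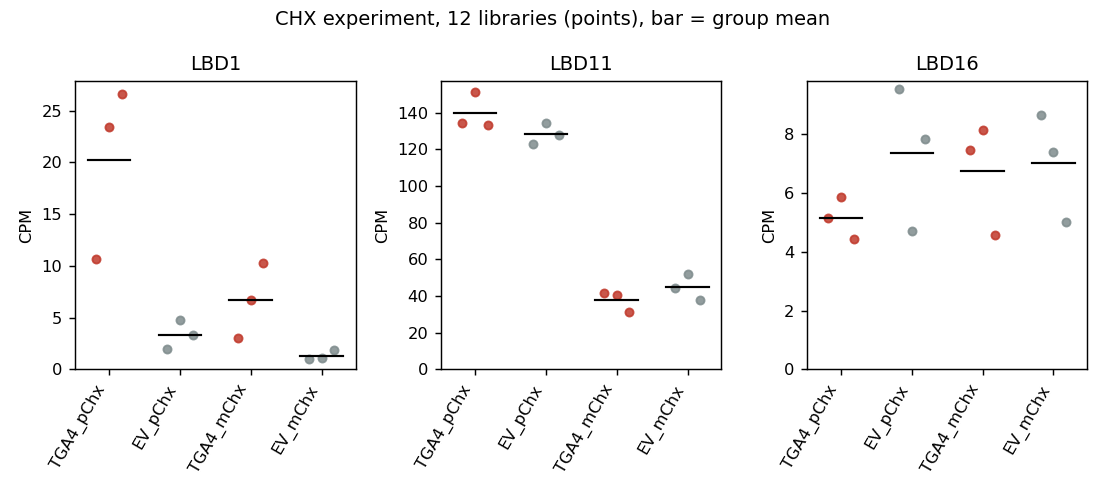
CPM of LBD1, LBD11 and LBD16 in the 12 libraries of the CHX experiment (points) with group means (bars), on linear axes that start at 0. LBD11 lies between 123 and 151 CPM with CHX and between 31.2 and 51.8 CPM without it, for both vectors.

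Among members too low for the test in the CHX experiment, LBD29 had 22 counts over the 3 EV_pChx libraries, against 0 over the 3 EV_mChx libraries, so its level was at least 6.42-fold higher with CHX when 3 counts over the group are taken as the floor. LBD29 had 17 counts in TGA4_pChx, against 2 in TGA4_mChx, a ratio of 7.63 with a 95% exact counting interval of 1.81 to 68.1. LBD33 had 6 counts in TGA4_pChx, against 0 in TGA4_mChx, and was at least 1.80-fold higher with CHX by the same floor. For LBD3, LBD17 and LBD18 the interval of the ratio included 1 in every pair of groups in which the lower group held 1 to 3 counts. LBD4 had 0 or 1 count in the libraries of this experiment, apart from 2 in EV_pChx replicate 1.

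TGA4 had no detectable effect on LBD11 or LBD16 in the CHX experiment. LBD11 differed by 0.13 ± 0.12 with CHX and by -0.27 ± 0.14 without (log2, SE, edgeR adjusted p = 0.748 and 0.324), and LBD16 by -0.50 ± 0.35 and -0.07 ± 0.35 (edgeR adjusted p = 0.606 and 0.94). With edgeR 0 of 2 members were called with CHX, where 1.92% of genes tested were called, and 0 of 2 without, where 5.88% were. At an unadjusted p under 0.05 the count of members was 0 in both, where 2431 (with CHX) and 3592 (without) of 18674 genes were under it. DESeq2 called 0 members in both too. The difference between the TGA4 effects with and without CHX was 0.39 ± 0.19 for LBD11 (edgeR unadjusted p = 0.049, adjusted p = 0.752) and -0.43 ± 0.49 for LBD16, so 0 of 2 members were called by edgeR and by DESeq2 (0.129% of genes tested).

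In the N-dose experiment LBD16 was lower with TGA4 at 2 doses and LBD29 higher at 1. LBD16 had 22.9, 16.6 and 18.8 CPM in TGA4_0N, against 31.0, 29.9 and 26.5 CPM in EV_0N, and 14.1, 13.9 and 13.9 CPM in TGA4_60N, against 24.1, 23.4 and 18.5 CPM in EV_60N. All TGA4 libraries lay below all EV libraries at these doses. The log2 fold change was -0.59 ± 0.16 at 0N and -0.66 ± 0.16 at 60N (SE, edgeR adjusted p = 0.0205 and 0.0135). At 5N, LBD16 had 13.3, 15.9 and 11.8 CPM in TGA4_5N, against 20.5, 13.0 and 18.3 CPM in EV_5N, with overlap and a log2 fold change of -0.34 ± 0.17 (edgeR adjusted p = 0.26). The call at 0N was lost without EV_0N replicate 1 or 2 or TGA4_0N replicate 2 or 3 (log2 fold change -0.57 to -0.48, edgeR adjusted p = 0.0708 to 0.131). The call at 60N was lost without EV_60N replicate 1 or any of the 3 TGA4_60N libraries (log2 fold change -0.67 to -0.59, edgeR adjusted p = 0.0514 to 0.0571).

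LBD29, which acts with LBD16 in lateral root initiation, had 14.7, 8.11 and 13.2 CPM in TGA4_5N, against 3.52, 5.34 and 2.32 CPM in EV_5N. The groups did not overlap, and the log2 fold change was 1.70 ± 0.29 (SE, edgeR adjusted p = 0.00052), or 1.44 (adjusted p = 0.00489) without EV_5N replicate 3. At 0N it had 9.99, 12.9 and 14.7 CPM in TGA4_0N, against 7.21, 7.23 and 7.23 CPM in EV_0N, and at 60N 7.21, 6.89 and 8.24 CPM in TGA4_60N, against 4.34, 6.56 and 2.96 CPM in EV_60N. The TGA4 libraries were the higher ones without overlap here too, but the log2 fold changes of 0.80 ± 0.26 and 0.64 ± 0.28 did not pass (edgeR adjusted p = 0.0582 and 0.193). The TGA4 effect on LBD29 was not shown to differ between doses, with an unadjusted p of 0.033 and an adjusted p of 0.969 in the edgeR interaction test.

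**Figure D3:**
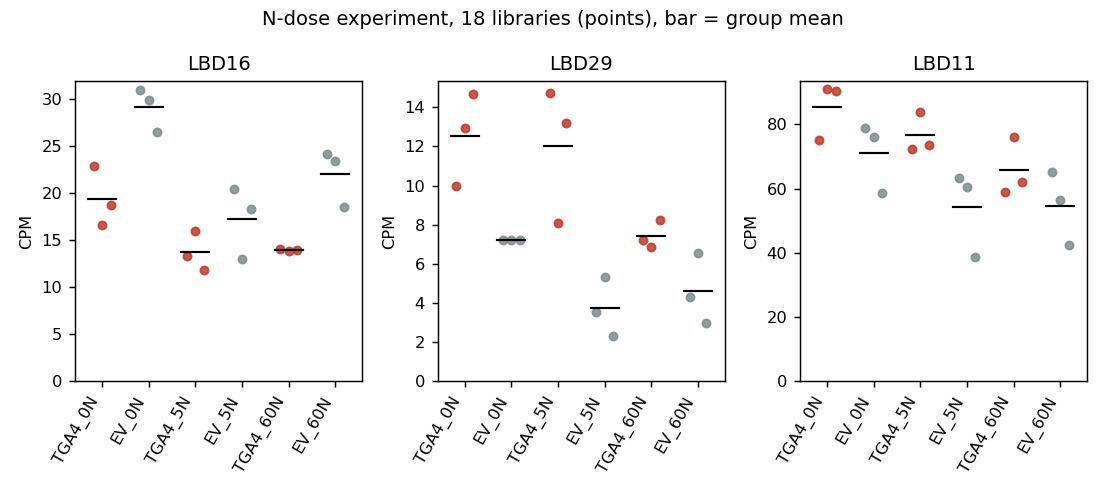
CPM of LBD16, LBD29 and LBD11 in the 18 libraries of the N-dose experiment (points) with group means (bars), on linear axes that start at 0. LBD16 is lower with TGA4 than with EV at 0N and 60N, LBD29 is higher with TGA4 at each dose, and the LBD11 groups overlap at 0N and 60N.

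LBD11, which shares the upstream block printed above with LBD1, was not called for TGA4 at any dose. It had 75.3, 90.9 and 90.6 CPM in TGA4_0N, against 78.8, 76.0 and 58.7 CPM in EV_0N. At 5N it had 72.4, 83.8 and 73.7 CPM in TGA4_5N, against 63.2, 60.7 and 38.8 CPM in EV_5N, without overlap. At 60N it had 59.0, 76.2 and 62.0 CPM in TGA4_60N, against 65.2, 56.6 and 42.6 CPM in EV_60N. The log2 fold changes were 0.27 ± 0.17, 0.50 ± 0.18 and 0.26 ± 0.18 (SE, edgeR adjusted p = 0.402, 0.0936 and 0.444). LBD3, a cytokinin-responsive member of the cambium group, averaged 1.08 ± 0.404, 1.30 ± 0.171 and 0.749 ± 0.165 CPM in TGA4_0N, TGA4_5N and TGA4_60N, against 0.392 ± 0.405, 0.315 ± 0.164 and 0.106 ± 0.112 CPM in EV_0N, EV_5N and EV_60N (SD, n = 3). TGA4 libraries were above EV libraries without overlap at 5N and 60N. Its log2 fold changes were 1.46 ± 0.59, 1.99 ± 0.64 and 2.44 ± 0.76 (SE), at 0 to 16 counts per library. As LBD3 entered the fit only through TGA4 libraries, in which it is the higher, these values are a description. LBD17 averaged 0.254 to 0.657 CPM in the TGA4 groups, against 0.674 to 1.27 CPM in the EV groups, with log2 fold changes of -1.35 to -0.67 that did not pass. LBD18 averaged 0.560 to 0.922 CPM in the TGA4 groups, against 0.611 to 1.37 CPM in the EV groups, and its fold changes did not pass either. LBD4, untested, had 1 count over TGA4_0N, against 26 over EV_0N, and the EV_0N level was 21.6 times that of TGA4_0N (95% exact counting interval 3.55 to 885), an interval that covers counting error only. At 5N and 60N LBD4 had 0 to 5 counts in every library of either vector, and LBD33 had at most 2 counts in any library of the experiment.

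**Figure D4:**
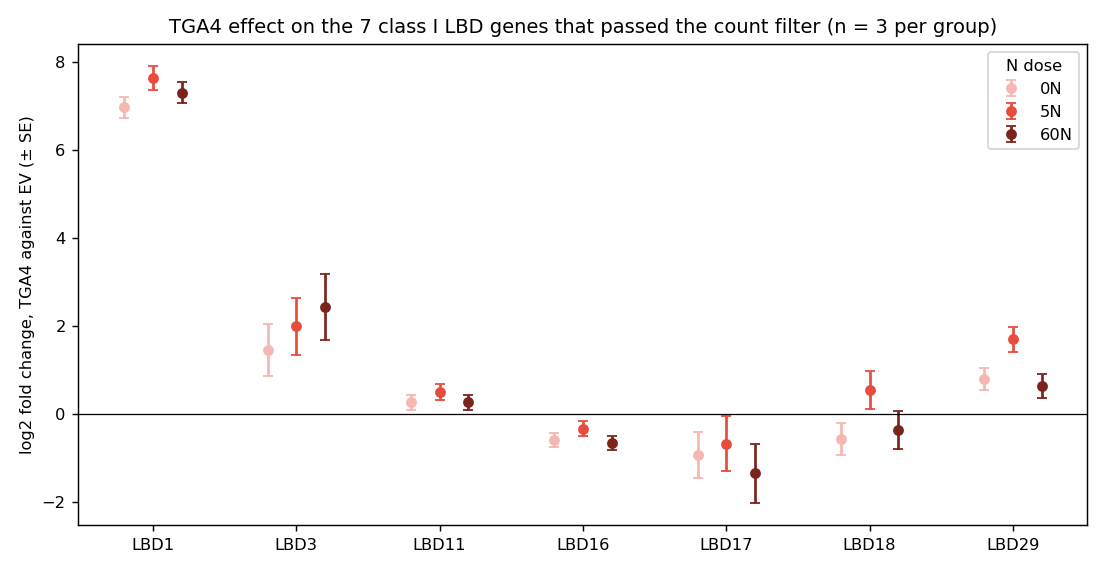
Fitted log2 fold change of TGA4 against EV (points, with SE as error bars) for the 7 members that passed the filter, at 0N, 5N and 60N, n = 3 libraries per group. LBD1 lies between 6.98 and 7.65, and the other 6 members lie between -1.35 and 2.44.

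Leaving LBD1 aside, 1 of 6 tested members was called at 0N, 1 of 6 at 5N and 1 of 6 at 60N, where 8.86%, 7.89% and 7.74% of all genes tested were called. LBD3, LBD17 and LBD18, which entered through few libraries, are among the 6, and nothing is read from these counts. No member was called for TGA4 by N with edgeR (0% of genes tested), while 1 of the 6 members and 797 genes had an unadjusted p under 0.05, and DESeq2 called 0 members and 4 genes. Root markers moved beside these values. AHK4 was lower with TGA4 at 0N (-0.93 ± 0.23) and CASP1 at 5N (-1.62 ± 0.30) among 5 markers tested, and CASP1 was lower in the CHX experiment, with CHX (-1.62 ± 0.21) and without (-0.96 ± 0.20, all edgeR log2 fold changes ± SE). Their part in the TGA4 results was not tested.

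For N alone, in protoplasts with CHX, 1 member, LBD16, was called, and that in EV cells at 5N. In EV cells LBD16 fell to 20.5, 13.0 and 18.3 CPM in EV_5N, against 31.0, 29.9 and 26.5 CPM in EV_0N, without overlap (log2 fold change -0.75 ± 0.16, SE, edgeR adjusted p = 0.0209). It was the 1 member of 7 in the fit that was called, where 1.59% of genes tested were called. At an unadjusted p under 0.05 there were 3268 of 18342 genes tested and 4 members. These were LBD16, LBD11 (-0.39 ± 0.18), LBD29 (-0.96 ± 0.29) and LBD18 (-1.16 ± 0.39, edgeR log2 fold changes ± SE), all lower at 5N, and DESeq2 called 2, LBD16 and LBD29. The call was lost without EV_0N replicate 2 or 3 or EV_5N replicate 2 (log2 fold change -0.82 to -0.59, edgeR adjusted p = 0.0561 to 0.0729) and when only these 6 libraries were fitted (adjusted p = 0.139). For 60N in EV cells 0 of 7 members were called by edgeR and by DESeq2 (3.59% of genes tested). An unadjusted p under 0.05 was seen for 2951 of 18342 genes and for 4 members (LBD11, LBD16, LBD18 and LBD29), all 4 lower at 60N. There the log2 fold change was -0.38 ± 0.17 for LBD11, -0.40 ± 0.15 for LBD16 and -0.59 ± 0.27 for LBD29 (SE). In TGA4 cells edgeR called 0 of 7 at 5N, where 0.273% of genes tested were called, and 0 of 7 at 60N, where 3.03% were. DESeq2 called 0 in each, and unadjusted p-values under 0.05 were seen for LBD16 at 5N and for LBD11 (-0.38 ± 0.17), LBD16 (-0.47 ± 0.16) and LBD29 (-0.75 ± 0.26) at 60N, again lower. Over the 18342 genes tested, 975 at 5N and 2939 at 60N had such a p-value. LBD1, LBD3, LBD17 and LBD18 entered the fit mainly through 1 vector or dose, so nothing is read from their part in these counts. LBD18 entered mainly through EV_0N, in which it is the higher, so its values in EV cells are a description.

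The 5 genes whose pattern was most like that of LBD1 over the 14 group means of log2 CPM, centred within each experiment, were AT1G10220 (Pearson r = 0.971), the salicylic acid receptor gene NPR4 (AT4G19660, 0.968), the jasmonate synthesis gene AOC2 (AT3G25770, 0.965), the WRKY factor gene ABO3 (AT1G66600, 0.964) and the NAC factor gene NAC105 (AT5G66300, 0.957), among 16582 genes. Groups of an experiment share scaling and the TGA4 and EV contrast, so these r values are a description. ABO3 averaged 145, 146 and 179 CPM in TGA4_0N, TGA4_5N and TGA4_60N, against 3.76, 6.26 and 8.18 CPM in EV_0N, EV_5N and EV_60N. In the CHX experiment it averaged 42.5 CPM in TGA4_pChx, against 5.37 CPM in EV_pChx. Unlike LBD1, NPR4 had 17.6 to 18.7 CPM in whole roots. LBD11 ranked 2879th (r = 0.424) and LBD16 6783rd (r = 0.213). TGACG was present in the 500 bases before 4 of these 5 genes and not before AOC2, where 31.77% of 32794 genes have it. As the 5 genes were picked for a pattern that holds the TGA4 and EV contrast, this count is a description. Binding was not tested. Short stretches around the motif nearest the start, in capitals, are given for LBD1 and those 4.
LBD1, 113 bases upstream: aaaaaagccaCGTCAtaattcgagc
AT1G10220, 102 bases upstream: acatctgggaTGACGtttcatttgg
NPR4, 24 bases upstream: ttatttaagaCGTCAtagacccact
ABO3, 218 bases upstream: catgttctttCGTCAtgacataaag
NAC105, 377 bases upstream: tgacacataaCGTCAgattgtaatt

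Among the 9 members, the transcripts with the highest level differed between protoplasts and whole roots. Per length of exon, LBD11 led in protoplasts with 66.1 ± 9.26 CPM per kb in Protoplast_60N and 91.1 ± 18.8 CPM per kb in Protoplast_0N (SD, n = 4), before LBD16 with 57.9 ± 3.81 and 57.7 ± 4.08 CPM per kb. LBD11 and LBD16 overlapped at 60N and not at 0N. LBD29 (7.52 ± 4.66 and 9.24 ± 1.44 CPM per kb) and LBD17 (3.09 ± 0.577 and 3.10 ± 0.682 CPM per kb) followed, and LBD4 was at 0.217 ± 0.193 and 0.216 ± 0.266 CPM per kb. In whole roots LBD4 led, with 16.2 ± 2.1 CPM per kb in Root_60N and 17.8 ± 1.99 CPM per kb in Root_0N (SD, n = 4), followed by LBD16 with 3.69 ± 0.570 and 3.46 ± 0.319 CPM per kb. LBD3, LBD29, LBD17, LBD18 and LBD33 came next in an order in which neighbours overlapped in Root_0N, and LBD11 and LBD1 were last. In TGA4_60N, by contrast, LBD1 led with 143 ± 17.5 CPM per kb, before LBD11 with 54.3 ± 7.62 CPM per kb (SD, n = 3), and the 2 genes did not overlap.

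**Figure D5:**
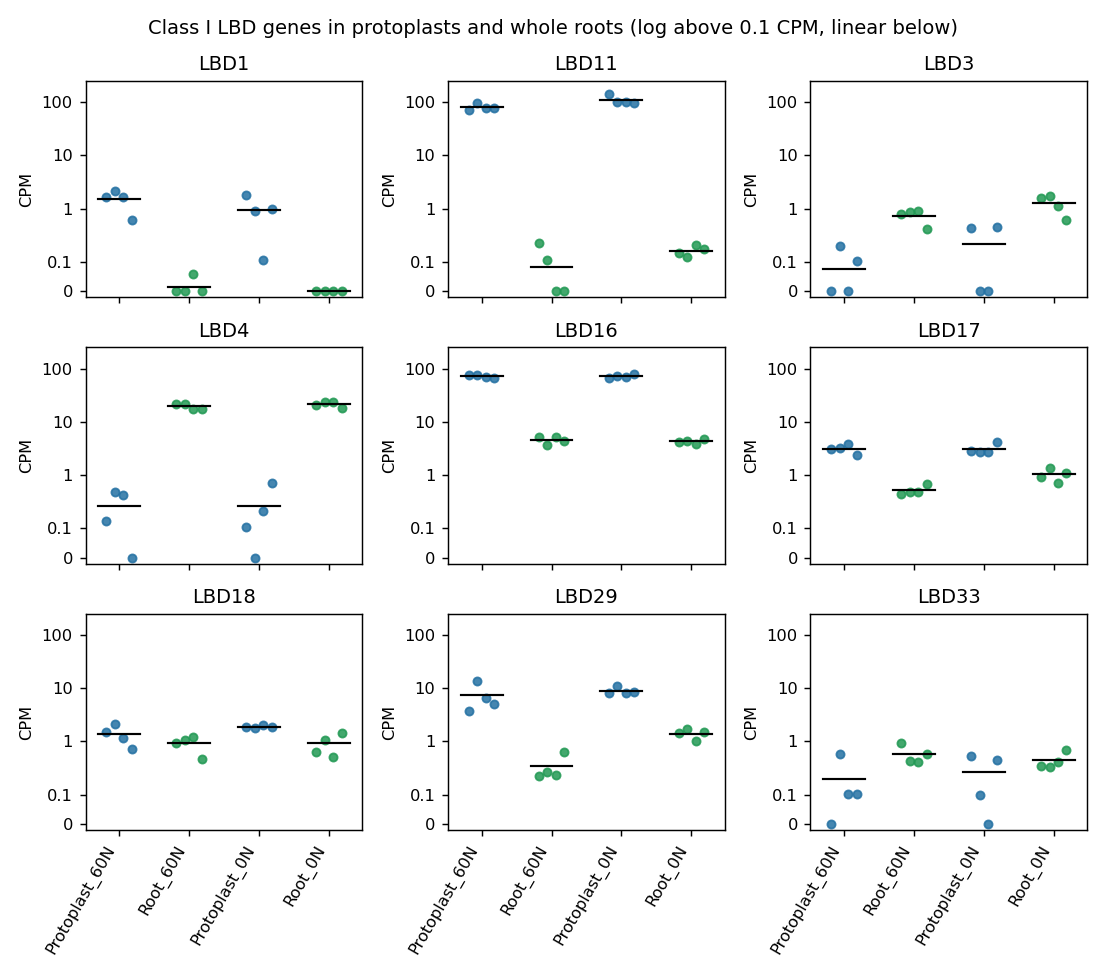
CPM of each of the 9 members in the 16 libraries of the root and protoplast experiment (points) with group means (bars), on axes that are logarithmic above 0.1 CPM and linear below. LBD1, LBD11, LBD16, LBD17 and LBD29 sit higher in protoplasts, while LBD4 and LBD3 sit higher in whole roots.

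LBD11, abundant in protoplasts, was nearly absent from whole roots. It had 70.0, 96.1, 77.6 and 76.5 CPM in Protoplast_60N, against 0.221, 0.108, 0 and 0 CPM in Root_60N, and 144, 102, 100 and 95 CPM in Protoplast_0N, against 0.147, 0.125, 0.202 and 0.171 CPM in Root_0N. The root values rest on 6 and 14 counts in all. The log2 fold change was 9.78 ± 0.28 at 60N and 9.36 ± 0.25 at 0N (SE), and 10.79 at 60N without Root_60N replicate 1. LBD1 had 1.61, 2.15, 1.67 and 0.615 CPM in Protoplast_60N, against 0, 0, 0.0597 and 0 CPM in Root_60N. It had 1.80, 0.881, 0.106 and 0.994 CPM in Protoplast_0N, and no count in the 4 Root_0N libraries, which allows up to 0.0342 CPM when 3 counts over the group are taken as the floor. Its level at 0N was thus at least 27.6-fold higher in protoplasts. At 60N, 56 counts in protoplasts against 1 in roots gave a ratio of 110 with a 95% exact counting interval of 18.9 to 4414. As LBD1 and LBD11 entered the fit only through protoplasts, in which they are the higher, these values are a description.

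LBD4, which marks the edge of the procambium next to the phloem, showed the opposite order. It had 0.135, 0.490, 0.419 and 0 CPM in Protoplast_60N, against 21.5, 21.9, 17.1 and 17.5 CPM in Root_60N. At 0N it had 0.106, 0, 0.212 and 0.723 CPM in Protoplast_0N, against 20.6, 23.2, 23.5 and 18.5 CPM in Root_0N. The log2 fold change was -6.13 ± 0.35 at 60N and -6.25 ± 0.34 at 0N (SE), and -7.49 at 0N without Protoplast_0N replicate 4. LBD3 was also lower in protoplasts, at 0.0746 ± 0.0942 CPM in Protoplast_60N, against 0.738 ± 0.220 CPM in Root_60N, and at 0.219 ± 0.253 CPM in Protoplast_0N, against 1.27 ± 0.526 CPM in Root_0N (SD, n = 4). LBD3 changed on the log2 scale by -3.06 ± 0.85 and by -2.46 ± 0.62 (SE), and by -4.05 at 60N without Protoplast_60N replicate 2. As LBD3 and LBD4 entered the fit only through roots, in which they are the higher, these values are a description. The 4 cambium members thus split, with LBD1 and LBD11 higher and LBD3 and LBD4 lower in protoplasts.

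Of the lateral root and callus members, LBD16 averaged 71.7 ± 4.71 CPM in Protoplast_60N, against 4.57 ± 0.705 CPM in Root_60N, and 71.4 ± 5.05 CPM in Protoplast_0N, against 4.28 ± 0.395 CPM in Root_0N (SD, n = 4). The lowest protoplast library had 65.3 CPM and the highest root library 5.19 CPM. The log2 fold changes of LBD16 were 3.97 ± 0.11 and 4.05 ± 0.11, those of LBD29 4.4 ± 0.41 and 2.66 ± 0.32, and those of LBD17 2.55 ± 0.29 and 1.59 ± 0.26 (SE, edgeR, adjusted p at most 7.6e-06). LBD18 differed by 0.58 ± 0.39 at 60N (edgeR adjusted p = 0.168) and by 1.01 ± 0.36 at 0N (adjusted p = 0.0129). At 0N LBD18 had 76 counts over the protoplast libraries and 83 over the root libraries. The TMM factors were 0.686 to 0.725 in Protoplast_0N, against 1.37 to 1.39 in Root_0N, so small differences between the tissues depend on the scaling. LBD33 was too low for the test, with 0.199 ± 0.264 CPM in Protoplast_60N, against 0.591 ± 0.242 CPM in Root_60N, and 0.270 ± 0.260 CPM in Protoplast_0N, against 0.441 ± 0.165 CPM in Root_0N (SD, n = 4). In all, 7 of 8 tested members were called at 60N, 5 higher and 2 lower in protoplasts, where 85.3% of genes tested were called. At 0N 8 of 8 were called, 6 higher and 2 lower, where 86.4% were. LBD1, LBD11, LBD3 and LBD4 entered the fit through 1 tissue alone, so nothing is read from these counts. Cell type markers moved with this comparison. Of 8 root markers 7 were lower and 1 (SCR) higher in protoplasts at either N supply, with a summed level of 122 and 110 CPM in Protoplast_60N and Protoplast_0N, against 506 and 516 CPM in Root_60N and Root_0N. All 4 green shoot markers were lower, at 2.03 and 1.79 CPM in sum, against 66.3 and 43.3 CPM. Their part in the LBD results was not tested, and fewer cells of a type cannot be told apart from less RNA per cell.

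In whole roots LBD29 and LBD17 were lower with N. LBD29 had 0.221, 0.271, 0.239 and 0.627 CPM in Root_60N, against 1.42, 1.71, 1.01 and 1.49 CPM in Root_0N. The groups did not overlap, and the log2 fold change was -2.02 ± 0.46 (SE, edgeR adjusted p = 0.0012). LBD17 had 0.442, 0.487, 0.478 and 0.679 CPM in Root_60N, against 0.928, 1.38, 0.707 and 1.11 CPM in Root_0N, also without overlap (-0.98 ± 0.30, edgeR adjusted p = 0.0122). Its call was lost without Root_0N replicate 2 (-0.81, adjusted p = 0.0571), whereas without Root_60N replicate 1 both genes were still called (adjusted p = 0.006 for LBD29 and 0.0375 for LBD17). LBD4 averaged 19.5 ± 2.52 CPM in Root_60N, against 21.5 ± 2.40 CPM in Root_0N, and LBD16 4.57 ± 0.705 CPM, against 4.28 ± 0.395 CPM (SD, n = 4), with overlapping ranges. Of 8 members in the fit 2 were called, where 43.2% of genes tested were called. LBD1 and LBD11, at or near 0 in every root library, could hardly be called here, so the shares are not compared. Markers moved in this contrast too. Of 8 root markers SHR, SCR and CASP1 were higher with N and WER and PHO1 lower, and of 4 green shoot markers LHCB2.1 (1.42 ± 0.49) and LHCB3 (1.00 ± 0.25, edgeR log2 fold changes ± SE) were higher. Their part in the LBD results was not tested.

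In protoplasts without CHX, edgeR called 0 of 8 members for N (2.41% of genes tested). An unadjusted p under 0.05 was seen for 3313 of 21007 genes and for 1 member, LBD11, which DESeq2 called. LBD11 averaged 80.0 ± 11.2 CPM in Protoplast_60N, against 110 ± 22.7 CPM in Protoplast_0N (SD, n = 4), and the groups overlapped, with a log2 fold change of -0.46 ± 0.14 (SE, edgeR adjusted p = 0.0819). LBD29 had 3.77, 13.9, 6.49 and 5.12 CPM in Protoplast_60N, against 8.06, 11.1, 8.25 and 8.58 CPM in Protoplast_0N. The log2 fold change of LBD29 with N was -0.28 ± 0.29 in protoplasts, against -2.02 ± 0.46 in roots. The difference of 1.74 ± 0.55 passed (SE, edgeR adjusted p = 0.0239), the 1 member of 8 called for this difference, where 24.4% of genes tested were called. The call was lost without Protoplast_0N replicate 1, 3 or 4, Protoplast_60N replicate 2 or Root_60N replicate 1 or 3 (1.10 to 1.61, edgeR adjusted p = 0.0541 to 0.065), with the lowest value without Protoplast_60N replicate 2, the library at 13.9 CPM. For LBD17 the difference was 0.97 ± 0.39 (edgeR adjusted p = 0.0795).

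The rest of class I and the genes around it gave the following counts. Of 28 other class I LBD genes 5 passed the filter of the N-dose experiment, and LBD12 alone was called for TGA4, lower at 0N (-0.79 ± 0.15) and at 60N (-0.70 ± 0.16), where 8.86% and 7.74% of genes tested were called. In the CHX experiment LBD12 was lower with TGA4 without CHX (-0.70 ± 0.15, 5.88% of genes tested called) and was not called for TGA4 with CHX (1.92%). It was higher with CHX in TGA4 cells (1.53 ± 0.15, 45.9%) and in EV cells (1.32 ± 0.14, 48.1%). Of 12 tested in the root and protoplast experiment, 4 were higher and 7 lower in protoplasts at 60N, and 4 were higher and 6 lower at 0N, where 85.3% and 86.4% of all genes tested were called. The largest at 0N were LBD35 (9.95 ± 0.56), LBD32 (7.19 ± 0.77), the founding gene LOB (-6.64 ± 1.08) and LBD25 (-3.36 ± 0.33). In whole roots 3 of 12 were lower with N, LOB (-1.79 ± 0.47), LBD15 (-0.63 ± 0.19) and LBD13 (-0.58 ± 0.20), and none was higher, where 43.2% of genes tested were called. All values in this and the next paragraph are edgeR log2 fold changes ± SE, with calls at an adjusted p under 0.05.

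Of 11 auxin and lateral root genes 8 passed the filter of the N-dose experiment, and LRP1, a marker of lateral root primordia, was lower with TGA4 at 0N (-1.02 ± 0.24) and none at 5N or 60N. In the CHX experiment 0 of 7 tested were called for TGA4, with or without CHX. In whole roots, where 43.2% of genes tested were called, 6 of 11 were lower with N, among them GATA23 (-2.04 ± 0.64), which acts in lateral root founder cells, EXPA14 (-0.98 ± 0.12), an expansin, and IAA14 (-0.87 ± 0.16), a repressor of auxin response. In protoplasts at 0N, where 86.4% of genes tested were called, 2 were higher, ARF19 (3.98 ± 0.10) and ARF7 (0.63 ± 0.11), and 9 lower. Of 15 vascular and cambium genes, 12 were tested with TGA4, and TMO5, a factor for vascular cell divisions, and AT2G28510 were higher at every dose (8.86%, 7.89% and 7.74% of genes tested were called). TMO5 changed by 1.15 ± 0.20, 1.52 ± 0.22 and 0.99 ± 0.21 at 0N, 5N and 60N, and at 5N HCA2 (-2.06 ± 0.53) and CLE41 (-0.49 ± 0.14) were lower. In the CHX experiment 1 of 12 tested was called for TGA4 without CHX, TMO5 (2.11 ± 0.32, 5.88% of genes tested called). With CHX 1 of 12 was called, ATHB8, which was lower (-1.83 ± 0.40, 1.92%), so neither TMO5 nor AT2G28510 was called there. Against the same 43.2%, 9 of these 15 were lower with N in whole roots, led by WOX4 (-3.64 ± 0.32), ANT (-2.52 ± 0.22), CYCD3;1 (-1.38 ± 0.17) and CLE41 (-1.22 ± 0.16), of which WOX4 and ANT promote cambium activity. Against the same 86.4%, 11 of 15 were lower and 3 higher in protoplasts at 0N, with WOX4 at -9.13 ± 0.69 and ANT at -8.36 ± 0.48. Of 7 wound and callus genes, 4 were higher and 1 lower in protoplasts at 0N (86.4% of genes tested), led by ERF115 (11.05 ± 0.22), a factor of wound-induced regeneration, and PLT3 (2.78 ± 0.14). For TGA4 at 0N, against 8.86%, WOX11 was higher (0.62 ± 0.18) and WIND1 lower (-0.58 ± 0.13) among 5 tested, and none was called at 5N or 60N. In the CHX experiment, with 6 tested, PLT3 (-0.71 ± 0.15) and ERF115 (-0.48 ± 0.11) were lower with TGA4 without CHX (5.88% of genes tested called). None of the 6 was called for TGA4 with CHX.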

How the data were processed

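The 46 libraries measured poly(A) RNA of whole roots and root protoplasts. The authors deposited whole-number counts per gene, not normalized, made by aligning reads to TAIR10 with TopHat2 and counting with GenomicFeatures and GenomicAlignments, per the methods. The strand setting and the treatment of reads shared between genes are not given in the sources used here, and the tables hold no coordinates, so positions and sequences were taken from RefSeq TAIR10.1, in which all 9 members matched by ID.

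Groups and replicate numbers come from the labels. Counts were fitted within each experiment with edgeR 4.0.16 (R 4.3.3), with TMM scaling, the filterByExpr filter, a mean for each group and its quasi-likelihood test. P-values were adjusted by Benjamini-Hochberg over all genes tested (18342, 18674 and 21007), with calls under 0.05. CPM are relative to the TMM-scaled total. The SE is the ratio of the fitted log2 fold change to the root of the F statistic. A prior count of 2 was used only for the log2 CPM behind the likeness to LBD1 and the deviations of same-numbered libraries. The study used a batch term, but the labels give no batch, so none was fitted. Sequences were handled with Biopython 1.88.

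The members and the lists (other class I LBD, auxin and lateral root, vascular and cambium, wound and callus, root markers, green shoot markers) were chosen with earlier results of these data known. All members are named, and of a list up to 4 called genes with the largest change. Genes like LBD1 are the 5 with the highest Pearson r. Alternatives were DESeq2 1.42.0, DESeq2 size factors, no filter, only the groups compared, the replicate number as a block, and leaving out each library. Same-numbered libraries deviated together in every pair (r of 0.147 to 0.236) for 60N against 0N in EV only.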

Additional observations from a re-analysis of the deposited data

Results flagged for a closer look

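Within the 4 replicates of a group, 4 values lay far from the other 3, of 35 groups of values compared, where chance alone is expected to mark about 1 in 20. LBD11 had 144 CPM in Protoplast_0N replicate 1, against 95 to 102 CPM in the other 3 libraries. LBD17 had 4.16 CPM in Protoplast_0N replicate 4, and LBD29 had 0.627 CPM in Root_60N replicate 4. LBD1 had 0.0597 CPM in Root_60N replicate 3, which is 1 count where the other 3 libraries had none. The response of LBD29 to N differed between protoplasts and whole roots, by 1.74 on the log2 scale in the edgeR interaction test.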

How the results depend on the processing

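Every member called in the main analysis kept its direction under all alternatives run. The number of members called moved as follows. With DESeq2 it was 2 for TGA4 at 0N (LBD16 and LBD29), 2 for TGA4 at 60N (LBD3 and LBD16), 2 for 5N in EV (LBD16 and LBD29), 3 for CHX in EV (LBD1, LBD11 and LBD29), 1 for N in protoplasts (LBD11) and 1 for the CHX response over 5-fold (LBD29). With no filter it was 3 for TGA4 at 0N (LBD4, LBD16 and LBD29), 2 for TGA4 at 5N (LBD11 and LBD29), 2 for 5N in EV, 3 for CHX in EV and 1 for the 5-fold CHX response. With only the groups compared it was 2 for TGA4 at 0N, 0 for 5N in EV and 3 for 60N in TGA4 (LBD11, LBD16 and LBD29). DESeq2 size factors changed no count by over 1.5 times. Leaving out single libraries gave counts of 0 to 2 for TGA4 at 0N, 1 to 2 at 5N and 0 to 3 at 60N, 0 to 1 for 5N in EV, 1 to 2 for CHX in EV, 1 to 2 for N in roots, 0 to 1 for N in protoplasts and 0 to 1 for tissue by N. The groups-only fits and those without single libraries also use fewer libraries. The cause of these shifts was not tested.

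With the replicate block the count was 2 for TGA4 at 5N (LBD11 and LBD29), 2 for TGA4 at 60N (LBD3 and LBD16) and 2 for CHX in EV (LBD1 and LBD11), where same-numbered libraries did not all deviate together. For 60N against 0N in EV, where they did, the block left the count at 0, and it changed no other call of members.

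Counts over all genes moved by over 1.5 times for TGA4 at 5N (939 with only the groups compared, against 1448), for 5N in EV (757 with DESeq2, 718 with no filter and 56 with only the groups compared, against 292), for 60N in EV (1004 with no filter and 35 with only the groups compared, against 659), for 5N in TGA4 (82, 89 and 116 with DESeq2, no filter and only the groups compared, against 50), for 60N in TGA4 (924, 880 and 2042, against 556), for TGA4 by N (4 with DESeq2, against 0), for TGA4 with CHX (689 with no filter and 541 with the block, against 358), for TGA4 by CHX (51 with DESeq2 and 131 with no filter, against 24) and for N in protoplasts (991 with DESeq2, against 506). Leaving out single libraries, which also leaves fewer samples, gave 934 to 2267 genes for TGA4 at 0N (1626 with all libraries), 825 to 1964 at 60N (1419), 31 to 547 for 5N in EV (292), 131 to 1018 for 60N in EV (659), 15 to 84 for 5N in TGA4 (50), 113 to 953 for 60N in TGA4 (556), 551 to 1285 for TGA4 without CHX (1098), 109 to 518 with CHX (358), 11 to 33 for TGA4 by CHX (24) and 274 to 623 for N in protoplasts (506). Depth limits LBD33 in every experiment and LBD3, LBD4, LBD17, LBD18 and LBD29 in the CHX experiment, where most libraries held under 10 counts of each.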
